A study of Saccharomyces cerevisiae with 20 samples.

Results

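The 10 genes described here encode proteins that deadenylate, decap and degrade mRNA or collect with mRNA in cytoplasmic granules of budding yeast (Saccharomyces cerevisiae). They were chosen by name from a table of 6679 genes. No cut on their measured values was used, but earlier results of these data were known at the time. They are CCR4 (YAL021C), DCP1 (YOL149W), DCP2 (YNL118C), PAT1 (YCR077C), LSM1 (YJL124C), EDC3 (YEL015W), SCD6 (YPR129W), XRN1 (YGL173C), PUB1 (YNL016W) and PBP1 (YGR178C). All 10 were detected in every library and passed the filter on low values.

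The cells were SK1, a strain background of budding yeast. In the DBP1 cells the ORF of DBP1 stood in the place of the DED1 ORF, under the regulatory regions of DED1. The DED1 cells carried the DED1 ORF under the same regulatory regions. Both genes encode RNA helicases of the DEAD-box family, and Ded1 is known for its part in translation initiation. The study asked how specific the helicases are and how far that depends on temperature. Both strains grew in rich YEPD medium at 37C or 30C, were harvested at the same optical density, and received 100 uM cycloheximide, which halts elongating ribosomes, for 1 min before harvest. Each of the 4 groups gave poly(A) mRNA libraries and ribosome footprint libraries, with 2 replicates at 37C and 3 at 30C, so 10 libraries of each kind. The titles of the libraries end in 30Cexp or 37exp. If these mark separate experiments, temperature and experiment cannot be told apart.

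An mRNA of the main yeast decay route first loses its poly(A) tail to the Ccr4-Not and Pan2-Pan3 deadenylases. Pat1 and the Lsm1-7 ring then bind the shortened tail and recruit the Dcp1-Dcp2 decapping enzyme, aided by Edc3 and Scd6, and the exonuclease Xrn1 digests the decapped body. Many of these proteins gather in P-bodies, while Pub1 and Pbp1 are known from stress granules, which also take up Ded1.

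Values were RPKM as deposited by the authors, read counts divided by gene length and by library size, so levels can be set side by side between genes. They are shares of a library and not amounts per cell, and in bulk cultures a change in every cell and a change in some cells cannot be told apart. From the steps in the RPKM values, an mRNA library held between 3.94 and 9.69 M reads, and a footprint library between 4.82 and 9.39 M. A member held 232 to 4092 reads in an mRNA library and 137 to 6362 in a footprint library, with the fewest for DCP1 footprints. The levels of the helicase ORFs matched the labels. DED1 mRNA was 0.0765 to 3.19 RPKM in the DBP1 cells, against 40.9 to 54.2 RPKM in the DED1 cells, and DBP1 mRNA was 98.3 to 130 RPKM in the DBP1 cells, against 3.64 to 6.50 RPKM in the DED1 cells. SK1 can enter meiosis, and the summed mRNA of 6 meiosis genes was 20.1 to 43.3 RPKM in DBP1 cells and 19.6 to 46.0 RPKM in DED1 cells.

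Most members had more mRNA than the median gene. PBP1, which encodes a Pab1-binding protein related to human ataxin-2, had the highest mRNA level of the members in every group, and CCR4, the catalytic deadenylase of Ccr4-Not, the lowest. In DED1 cells at 30C, PBP1 averaged 202 ± 5.33 RPKM and CCR4 29.5 ± 2.78 RPKM (SD, n = 3), against a median of 54.3 RPKM over the 5454 genes tested. PUB1, a poly(U)-binding protein, followed PBP1 at 162 RPKM in that group, then LSM1 at 144 RPKM and EDC3, an enhancer of decapping, at 119 RPKM. Next came SCD6, a translation repressor that binds Dcp2 and eIF4G, at 107 RPKM and DCP1 at 105 RPKM, and their ranges overlapped. DCP2, the decapping subunit itself, stood at 74.4 RPKM. PAT1 at 45.7 RPKM and XRN1 at 42.0 RPKM overlapped as well, and these 2 and CCR4 were the members below the median gene.

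**Figure D1:**
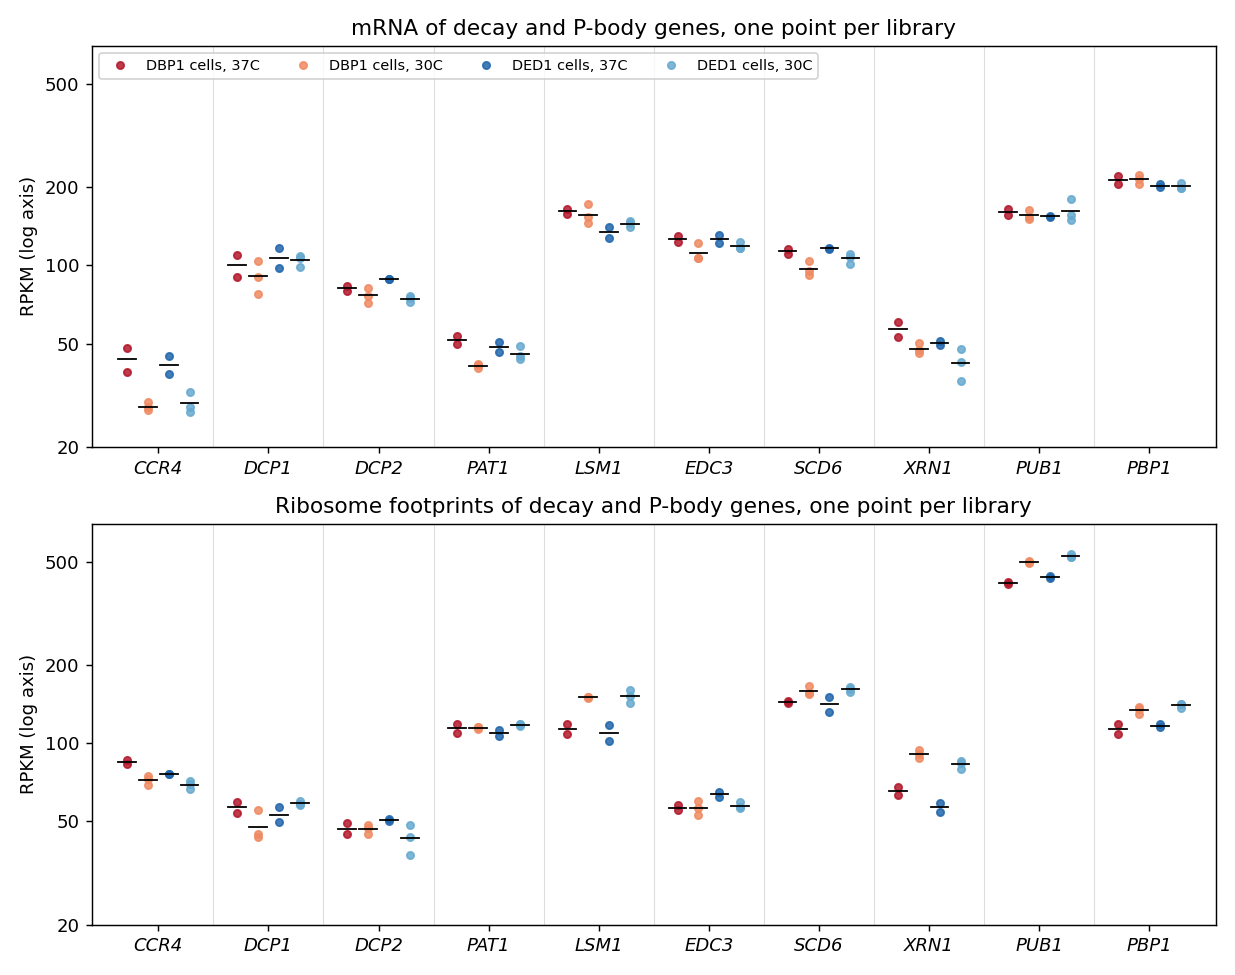
mRNA (top) and ribosome footprint (bottom) RPKM of the 10 genes on log axes, with 1 point per library, a black line at the group mean, and the DBP1 cells at 37C and 30C left of the DED1 cells at 37C and 30C. PBP1 has the highest mRNA level (202 RPKM on average in DED1 cells at 30C) and PUB1 the highest footprint level (527 RPKM), and the DBP1 points lie close to the DED1 points for most genes.

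Footprints ordered the members differently from mRNA. PUB1 led with 527 ± 9.36 RPKM in DED1 cells at 30C (SD, n = 3), above 91.6% of the 4986 genes tested. SCD6 at 162 RPKM and LSM1 at 152 RPKM overlapped, followed by PBP1 at 140 RPKM, PAT1 at 117 RPKM, XRN1 at 83.0 RPKM and CCR4 at 69.1 RPKM. DCP1 at 58.8 RPKM and EDC3 at 57.4 RPKM overlapped, and DCP2 was lowest at 43.1 RPKM, still above the median gene at 37.9 RPKM. Over the 10 cultures, PUB1 had 0.678 to 0.868 times the mRNA of PBP1 and 3.55 to 3.94 times its footprints. LSM1 had 2.75 to 4.14 times the mRNA of PAT1, its partner at the shortened tail, but 0.911 to 1.38 times its footprints. SCD6 mRNA was 0.753 to 0.968 times that of EDC3, and SCD6 footprints were 2.04 to 2.96 times those of EDC3. DCP1 and DCP2, whose proteins form 1 enzyme, were close in both measures, with DCP1 at 1.02 to 1.49 times the mRNA and 0.919 to 1.62 times the footprints of DCP2.

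Translation efficiency, footprint RPKM divided by mRNA RPKM of the same culture, spread the genes over a wide range. In DED1 cells at 30C the mean was 3.28 for PUB1, 2.57 for PAT1, 2.35 for CCR4 and 2 for XRN1. These stood above 99.3%, 98.3%, 97.9% and 96.3% of the 4977 genes tested. SCD6 followed at 1.52 and LSM1 at 1.05. PBP1 at 0.695, DCP2 at 0.578, DCP1 at 0.561 and EDC3 at 0.483 lay around or below the median gene at 0.654. PAT1 overlapped with CCR4 there, and CCR4 with XRN1. PUB1, PAT1 and CCR4 held the top places in that order in all 4 groups, although PAT1 and CCR4 also overlapped in DBP1 cells at 37C. XRN1 changed places with SCD6 between the temperatures. It stood above SCD6 at 30C in both strains, with overlapping ranges in the DBP1 cells, and below SCD6 at 37C, with overlapping ranges in the DED1 cells.

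**Figure D2:**
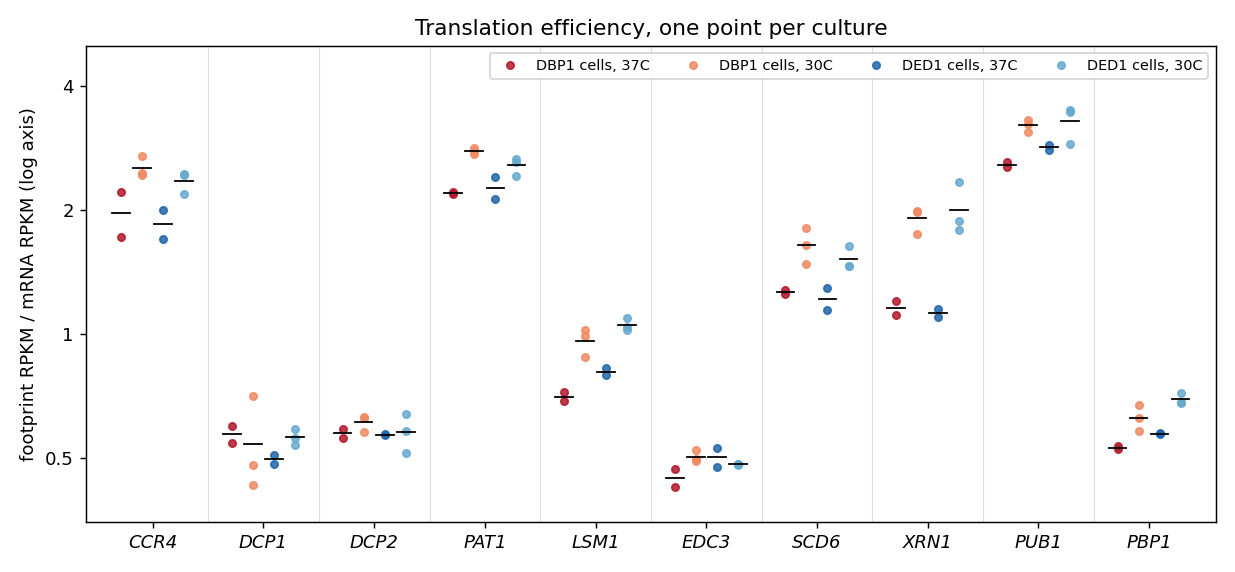
Translation efficiency (footprint RPKM over mRNA RPKM, log axis) of the 10 genes, with 1 point per culture, a black line at the group mean, and the DBP1 cells left of the DED1 cells, each with 37C left of 30C. PUB1 is highest in each group (3.28 in DED1 cells at 30C), and the XRN1 points at 37C (1.10 to 1.20) lie below those at 30C (1.75 to 2.34).

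The first comparison asked what replacing the DED1 ORF with that of DBP1 did to these genes. None of the 10 passed the test in mRNA, footprints or translation efficiency at either temperature. Differences were read from limma on log2(RPKM + 1), with a call at a Benjamini-Hochberg adjusted p under 0.05 over all genes tested. A log2 difference on this scale slightly understates the change of low genes. At 37C, the number of members called in mRNA was 0, against 0.0550% of all genes, and 1 member, LSM1, had an unadjusted p under 0.05. At 30C it was 0 in mRNA, against 9.30% of all genes, and 0 members had an unadjusted p under 0.05. Footprint calls were 0 members at 37C, against 0.963% of all genes, and 0 members at 30C, against 13.5%, with 1 member under an unadjusted 0.05 at each temperature (XRN1 at 37C and DCP1 at 30C). Translation efficiency calls were 0 members at 37C, against 0.0201% of all genes, and 0 at 30C, against 0.0402%, with 0 members under an unadjusted 0.05 in both.

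The 95% intervals show which sizes of change the libraries leave possible. For mRNA they ran over log2 differences of -0.44 to 0.49 at 37C and -0.49 to 0.43 at 30C across the 10 genes. For footprints they ran over -0.38 to 0.41 at 37C and -0.53 to 0.34 at 30C, and for translation efficiency over -0.48 to 0.63 at 37C and -0.44 to 0.37 at 30C. For the RPKM as deposited, a strain difference in mRNA of more than 1.4-fold in either direction lies outside the interval of every member at both temperatures. Each interval is taken alone. Under median-of-ratios scaling the members' median log2 mRNA difference was 0.12 at 37C and -0.10 at 30C, and this bound was not computed. The members' median log2 mRNA difference was 0.06 at 37C, against -0.05 over all genes, and -0.05 at 30C, against 0.04 over all genes.

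The member nearest to a call was DCP1, the activating partner of Dcp2. Its footprints at 30C were 55.1, 43.4 and 44.7 RPKM in the DBP1 cells, against 57.7, 58.5 and 60 RPKM in the DED1 cells. The groups did not overlap, and replicate 1 of the DBP1 cells was much nearer to the DED1 cells than the other 2. The log2 difference was -0.30 with a 95% interval of -0.53 to -0.07 and an adjusted p of 0.0814 (limma). Without replicate 1 of the DBP1 cells it was -0.41, with an adjusted p of 0.0327. At 37C the DCP1 footprints overlapped, with 53.9 and 59.6 RPKM in the DBP1 cells and 49.5 and 56.7 RPKM in the DED1 cells.

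**Figure D3:**
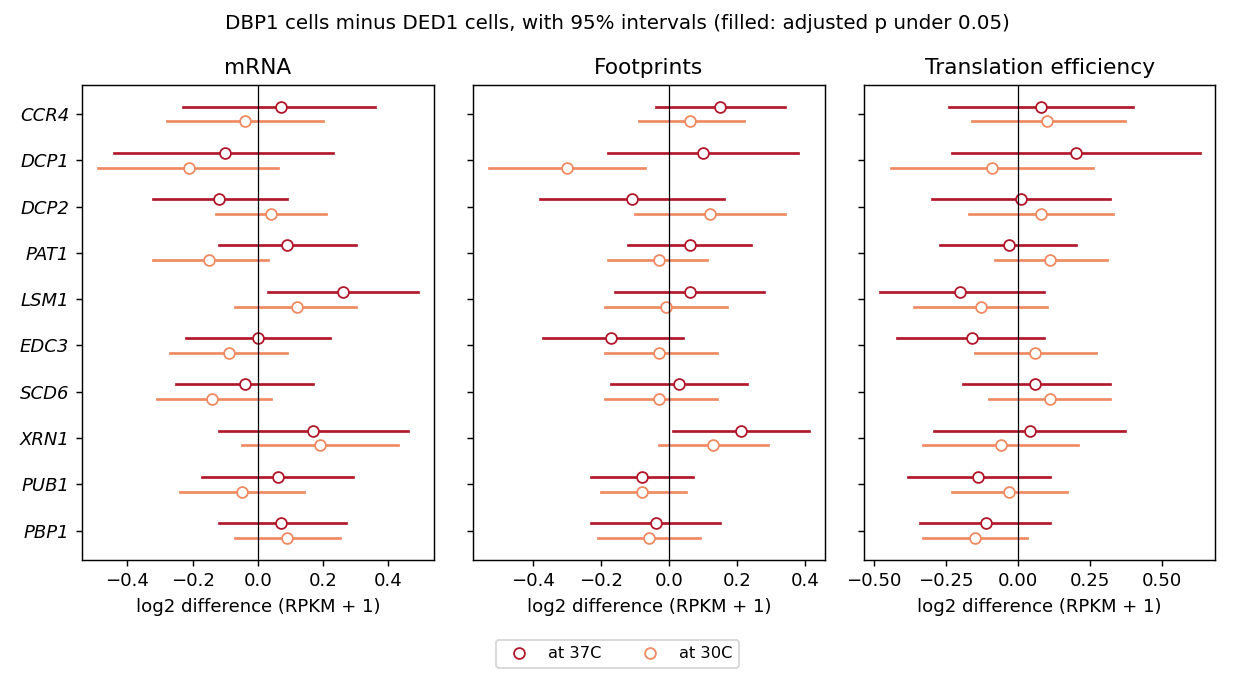
log2 differences, DBP1 cells minus DED1 cells, for mRNA, footprints and translation efficiency of the 10 genes, with 37C above 30C for each gene; points are limma estimates, lines 95% intervals, and open points have an adjusted p of 0.05 or more. All points are open, and the DCP1 footprint difference at 30C (-0.30) lies farthest from 0 among the footprint values.

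The second comparison set 37C against 30C in each strain. The group means of the 2 comparisons share no library. The fit, however, took a common estimate of spread from the libraries of both strains, so their tests are not independent. XRN1 had lower footprints and lower translation efficiency at 37C in both strains, while its mRNA was not lower. LSM1, PUB1 and PBP1 also had lower footprints at 37C in both strains. CCR4 had more mRNA at 37C in both strains in the RPKM as deposited, an increase that passed the test in the DBP1 cells alone once libraries were rescaled. Temperature changed a large share of the whole table, and the median of all genes depended on the scaling. With the RPKM as deposited, the median log2 mRNA difference over all genes was 0.18 in the DBP1 cells and 0.26 in the DED1 cells. Median-of-ratios scaling, which centres the libraries on their common genes, moved that median by -0.16 in the DBP1 cells and -0.26 in the DED1 cells, and the median footprint difference by -0.08 and -0.22 in the same order of strains. Of all genes, 1635 were called higher and 715 lower in mRNA in the DBP1 cells as deposited, against 714 higher and 1049 lower after scaling, and 2349 higher and 560 lower in the DED1 cells, against 926 higher and 1180 lower after scaling. In footprints the calls were 1059 higher and 879 lower in the DBP1 cells, against 761 and 1038 after scaling, and 1942 higher and 679 lower in the DED1 cells, against 1002 and 1195 after scaling. Calls of named genes that this scaling ended or turned are therefore given with their scaled values or the range of these.

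XRN1 encodes the exonuclease that degrades decapped mRNA. Its footprints were 67.7 and 63.4 RPKM in DBP1 cells at 37C, against 93.8, 87.5 and 91.0 RPKM at 30C. They were 59.0 and 54.2 RPKM in DED1 cells at 37C, against 85.5, 79.6 and 83.9 RPKM at 30C. In both strains every 37C library lay below every 30C library. The fall was 1.38-fold in the DBP1 cells (log2 difference -0.46 ± 0.08, SE, adjusted p = 0.00188, limma) and 1.46-fold in the DED1 cells (-0.54 ± 0.08, SE, adjusted p = 0.0006). With median-of-ratios scaling the log2 differences were -0.54 and -0.77 for the DBP1 and the DED1 cells.

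XRN1 mRNA was not lower at 37C. It was 60.7 and 52.9 RPKM in DBP1 cells at 37C, against 47.4, 50.1 and 45.8 RPKM at 30C, and 51.1 and 49.4 RPKM in DED1 cells at 37C, against 47.8, 42.4 and 35.8 RPKM at 30C. The 37C values were above all 30C values in each strain, but neither difference passed the test (log2 difference 0.24, adjusted p = 0.123 in DBP1 cells, and 0.26, adjusted p = 0.0881 in DED1 cells, limma). Under median-of-ratios scaling both lay near 0, at 0.08 in DBP1 cells and -0.00 in DED1 cells.

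The translation efficiency of XRN1 was 1.11 and 1.20 in DBP1 cells at 37C, against 1.98, 1.75 and 1.99 at 30C. In the DED1 cells it was 1.15 and 1.10 at 37C, against 1.79, 1.88 and 2.34 at 30C. The groups did not overlap in either strain, and the 37C cultures of both strains lay within 1.10 to 1.20. The efficiency fell 1.63-fold in the DBP1 cells (log2 difference -0.71 ± 0.14, SE, 95% interval -1.01 to -0.40, adjusted p = 0.0237, limma) and 1.75-fold in the DED1 cells (-0.81 ± 0.14, SE, 95% interval -1.11 to -0.50, adjusted p = 0.0153). It ranked 109 from the lowest of 4977 genes in the DBP1 cells and 47 in the DED1 cells. XRN1 was the 1 member called in translation efficiency, against 0.964% of all genes called lower in the DBP1 cells and 0.844% in the DED1 cells. That fit did not pair the footprint and mRNA library of a culture, and with pairing LSM1 was called as well. Among all genes its efficiency stood above 86.1% at 37C and 95.7% at 30C in the DBP1 cells, and above 83.8% at 37C and 96.3% at 30C in the DED1 cells.

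The direction of the XRN1 efficiency change held without any 1 culture, but the calls did not. In the DBP1 cells the adjusted p was 0.215 without replicate 1 at 37C, 0.215 without replicate 2 at 37C, 0.121 without replicate 1 at 30C and 0.117 without replicate 3 at 30C. In the DED1 cells it was 0.0922 without replicate 1 at 37C, 0.19 without replicate 2 at 37C, 0.0716 without replicate 2 at 30C and 0.0626 without replicate 3 at 30C. A fit of only the groups compared gave 0.0799 in the DBP1 cells and 0.11 in the DED1 cells. Over these XRN1 alternatives the log2 difference stayed between -0.76 and -0.66 in the DBP1 cells and between -0.85 and -0.69 in the DED1 cells. With the footprint and mRNA library of a culture paired, the adjusted p was 0.00737 in the DBP1 cells and 0.0048 in the DED1 cells. The share of all genes called in that paired fit is not given.

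**Figure D4:**
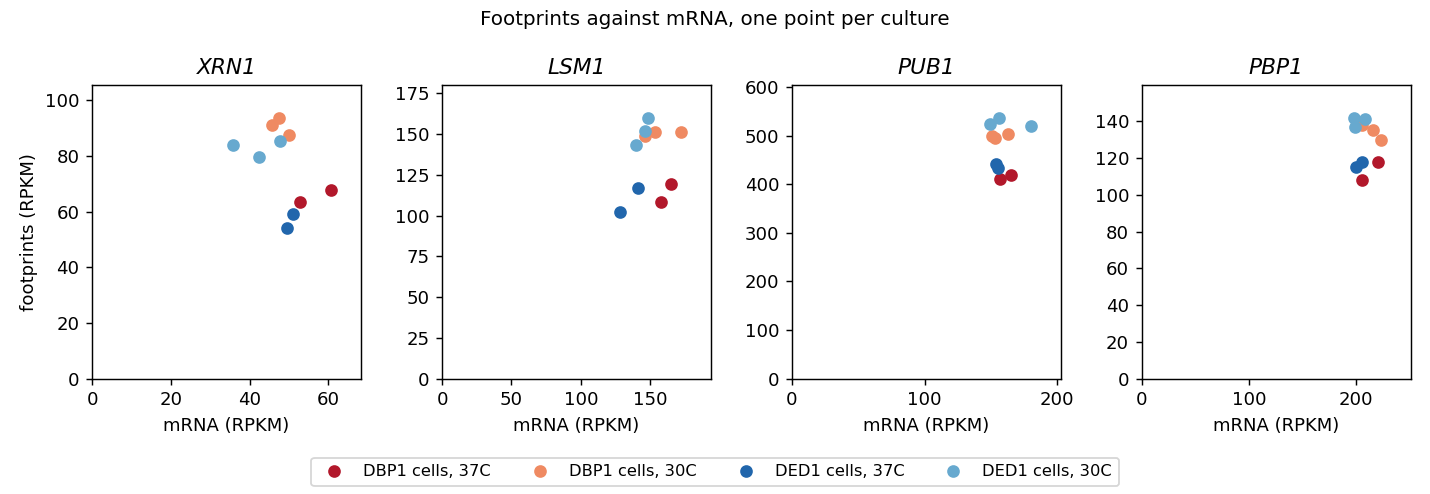
Footprint RPKM against mRNA RPKM for XRN1, LSM1, PUB1 and PBP1, with 1 point per culture and the DBP1 cells (37C, 30C) listed before the DED1 cells (37C, 30C). For each gene the 37C points lie below the 30C points in footprints, and the XRN1 points at 37C (49.4 to 60.7 RPKM of mRNA) lie to the right of or among the 30C points.

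LSM1 encodes the subunit that sets the cytoplasmic Lsm ring apart from its nuclear form. Its footprints were 108 and 119 RPKM in DBP1 cells at 37C, against 149, 151 and 151 RPKM at 30C, and 117 and 102 RPKM in DED1 cells at 37C, against 152, 143 and 160 RPKM at 30C. No 37C library reached the 30C range. The log2 difference was -0.40 in the DBP1 cells (adjusted p = 0.00662, limma) and -0.47 in the DED1 cells (adjusted p = 0.00209). Without replicate 1 at 37C of the DBP1 cells, the first of these had an adjusted p of 0.0553. LSM1 mRNA overlapped between temperatures in the DBP1 cells, at 158 and 165 RPKM at 37C and 146, 153 and 172 RPKM at 30C. In the DED1 cells it was 141 and 128 RPKM at 37C, against 146, 140 and 148 RPKM at 30C, with a log2 difference of -0.10 that was not called as deposited and was called at -0.37 (adjusted p = 0.00943) under median-of-ratios scaling. LSM1 translation efficiency was 0.687 and 0.722 in DBP1 cells at 37C, against 1.02, 0.990 and 0.877 at 30C. In DED1 cells it was 0.825 and 0.793 at 37C, against 1.04, 1.02 and 1.09 at 30C. These ranges did not overlap, the log2 differences were -0.44 (adjusted p = 0.0957) and -0.37 (adjusted p = 0.193), and with libraries paired by culture both passed, at adjusted p = 0.012 and 0.0262. The share of all genes called in the paired fit is not given, so these passes cannot be set against it. Over the alternatives, efficiency calls among all genes ran up to 279 in DBP1 cells and 334 in DED1 cells, against 51 and 49 as reported.

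PUB1 and PBP1, the stress granule proteins among the members, also had lower footprints at 37C. PUB1 footprints were 419 and 410 RPKM in DBP1 cells at 37C, against 504, 499 and 495 RPKM at 30C, and 441 and 434 RPKM in DED1 cells at 37C, against 520, 537 and 523 RPKM at 30C. The replicates of each group lay within a few percent of each other and the temperatures did not overlap. The log2 difference of PUB1 was -0.27 in both strains (adjusted p = 0.00784 in DBP1 cells and 0.00587 in DED1 cells, limma), and without replicate 2 at 37C of the DBP1 cells the first had an adjusted p of 0.0538. PBP1 footprints were 118 and 108 RPKM in DBP1 cells at 37C, against 138, 130 and 135 RPKM at 30C, and 115 and 118 RPKM in DED1 cells at 37C, against 141, 137 and 142 RPKM at 30C. They did not overlap either, with log2 differences of -0.25 (adjusted p = 0.0297) in DBP1 cells and -0.27 (adjusted p = 0.0154) in DED1 cells. The PBP1 call ended in the DBP1 cells without replicate 2 at 37C (0.19), replicate 1 at 30C (0.0858) or replicate 3 at 30C (0.0687) and with only the groups compared (0.0746), and in the DED1 cells without replicate 1 at 37C (0.0872), these being adjusted p. The mRNA of PUB1 and PBP1 was not called as deposited in either strain. Under median-of-ratios scaling it was called lower in the DED1 cells, at -0.33 for PUB1 (adjusted p = 0.0178) and -0.26 for PBP1 (adjusted p = 0.0283).

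In all, 4 of the 10 members were called lower in footprints in the DBP1 cells, against 17.6% of all genes, and 4 in the DED1 cells, against 13.6% of all genes. They were the same 4 genes in both strains. Over all genes, 48.8% of the lower footprint calls in the DBP1 cells were also made in the DED1 cells. For the lower calls in the DED1 cells the share was 63.2%. Both strains were tested with a common estimate of spread, so shared calls are not independent findings. In the DED1 cells 0 of 10 were called higher, against 38.9% of all genes (limma). The members' median log2 footprint difference was -0.07 in the DBP1 cells, against 0.10 over all genes, and -0.17 in the DED1 cells, against 0.21 over all genes. Under median-of-ratios scaling, 4 members were called lower in the DBP1 cells, against 1038 of the 4986 genes tested. In the DED1 cells 7 were called lower, against 1195 of 4986, as DCP1 (-0.37), PAT1 (-0.32) and SCD6 (-0.42) joined the 4. After scaling 0 members were called higher in either strain, against 761 of all genes in the DBP1 cells and 1002 in the DED1 cells. The 4 genes do not share a place in the pathway: they encode the exonuclease, a tail-binding decapping activator and 2 granule proteins. In translation efficiency the members' median log2 difference was -0.32 in the DBP1 cells, against -0.06 over all genes, and -0.24 in the DED1 cells, against -0.00 over all genes.

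CCR4 mRNA was 48.1 and 38.9 RPKM in DBP1 cells at 37C, against 29.7, 28.4 and 27.7 RPKM at 30C. It was 44.6 and 38.1 RPKM in DED1 cells at 37C, against 32.6, 28.6 and 27.3 RPKM at 30C. Each 37C library lay above each 30C library, with a wide gap between the 37C replicates. The increase was 1.50-fold in the DBP1 cells (log2 difference 0.58 ± 0.12, SE, adjusted p = 0.00424, limma) and 1.39-fold in the DED1 cells (0.47 ± 0.12, SE, adjusted p = 0.00826). Median-of-ratios scaling left 0.42 in the DBP1 cells (adjusted p = 0.0261) and ended the call in the DED1 cells at 0.21 (adjusted p = 0.201), which was also lost without replicate 1 at 37C of the DED1 cells (0.0836). CCR4 footprints were 82.8 and 85.9 RPKM in DBP1 cells at 37C, against 73.0, 68.9 and 75.0 RPKM at 30C, and 75.8 and 76.4 RPKM in DED1 cells at 37C, against 71.2, 69.4 and 66.7 RPKM at 30C. The footprint difference was called in the DBP1 cells alone (0.22, adjusted p = 0.0451), where 21.2% of all genes were called higher, and leaving out any 1 of their 5 libraries ended that call (adjusted p 0.0585 to 0.188), as did median-of-ratios scaling (0.14, adjusted p = 0.159).

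PAT1 and DCP2 were each called higher in mRNA in 1 strain as deposited, and neither call held under median-of-ratios scaling. PAT1 mRNA was 53.7 and 49.9 RPKM in DBP1 cells at 37C, against 41.8, 40.1 and 41.5 RPKM at 30C (log2 difference 0.32, adjusted p = 0.0143, limma). Scaling gave 0.16 (adjusted p = 0.173), and leaving out replicate 1 at 37C of the DBP1 cells gave 0.27 (adjusted p = 0.0874). In DED1 cells PAT1 mRNA overlapped, at 50.5 and 46.6 RPKM at 37C and 48.8, 44.9 and 43.5 RPKM at 30C. DCP2 mRNA was 89.0 and 88.6 RPKM in DED1 cells at 37C, against 76.0, 75.1 and 72.1 RPKM at 30C (log2 difference 0.25, adjusted p = 0.0275), but -0.02 (adjusted p = 0.891) under scaling. The DCP2 call also ended without replicate 1 at 37C (0.107), replicate 2 at 37C (0.0952), replicate 2 at 30C (0.059) or replicate 3 at 30C (0.0715) of the DED1 cells, as adjusted p. In all, 2 of 10 members were called higher in mRNA in the DBP1 cells, where 30.0% of all genes were, and 2 in the DED1 cells, where 43.1% were. No member was called lower in mRNA as deposited in either strain, while 13.1% and 10.3% of all genes were in the DBP1 and the DED1 cells. Median-of-ratios scaling turned the split in the DED1 cells to 0 higher and 3 lower (LSM1, PUB1 and PBP1), and left 1 higher and 0 lower in the DBP1 cells. After that scaling 926 of the 5454 genes tested were called higher and 1180 lower in the DED1 cells. In the DBP1 cells 714 were called higher and 1049 lower.

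DCP1, EDC3 and SCD6 passed no test between temperatures in the RPKM as deposited. EDC3 footprints were 57.7 and 55.2 RPKM in DBP1 cells at 37C, against 56.2, 52.8 and 59.8 RPKM at 30C, and 64.7 and 62.2 RPKM in DED1 cells at 37C, against 59.4, 56.7 and 56.2 RPKM at 30C. They overlapped in the DBP1 cells and not in the DED1 cells. SCD6 footprints were 145 and 143 RPKM in DBP1 cells at 37C, against 154, 156 and 166 RPKM at 30C, and 132 and 151 RPKM in DED1 cells at 37C, against 161, 158 and 165 RPKM at 30C. The 37C values lay below the 30C values in both strains, with an adjusted p of 0.0727 for SCD6 in the DED1 cells (limma). SCD6 mRNA was not lower at 37C, at 116 and 111 RPKM in DBP1 cells at 37C, against 104, 95.4 and 91.7 RPKM at 30C (log2 difference 0.23, adjusted p = 0.0563). DCP1 mRNA ranged over 90.2 to 110 RPKM in DBP1 cells at 37C, against 77.8 to 104 RPKM at 30C, and over 97.5 to 117 RPKM in DED1 cells at 37C, against 98.5 to 109 RPKM at 30C. These DCP1 values overlapped in both strains.

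The footprints of PAT1 and DCP2 passed no test as deposited. PAT1 footprints were 119 and 109 RPKM in DBP1 cells at 37C, against 115, 113 and 115 RPKM at 30C, and 107 and 112 RPKM in DED1 cells at 37C, against 118, 118 and 116 RPKM at 30C. They overlapped in the DBP1 cells and lay lower at 37C in the DED1 cells, with a log2 difference of -0.10 that was called after scaling alone (-0.32). DCP2 footprints were 44.7 and 49.1 RPKM in DBP1 cells at 37C, against 48.2, 47.3 and 44.7 RPKM at 30C, and 50.9 and 50.2 RPKM in DED1 cells at 37C, against 48.4, 43.7 and 37.2 RPKM at 30C. The DCP2 values overlapped in the DBP1 cells and not in the DED1 cells, where the log2 difference was 0.23 (adjusted p = 0.101, limma).

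**Figure D5:**
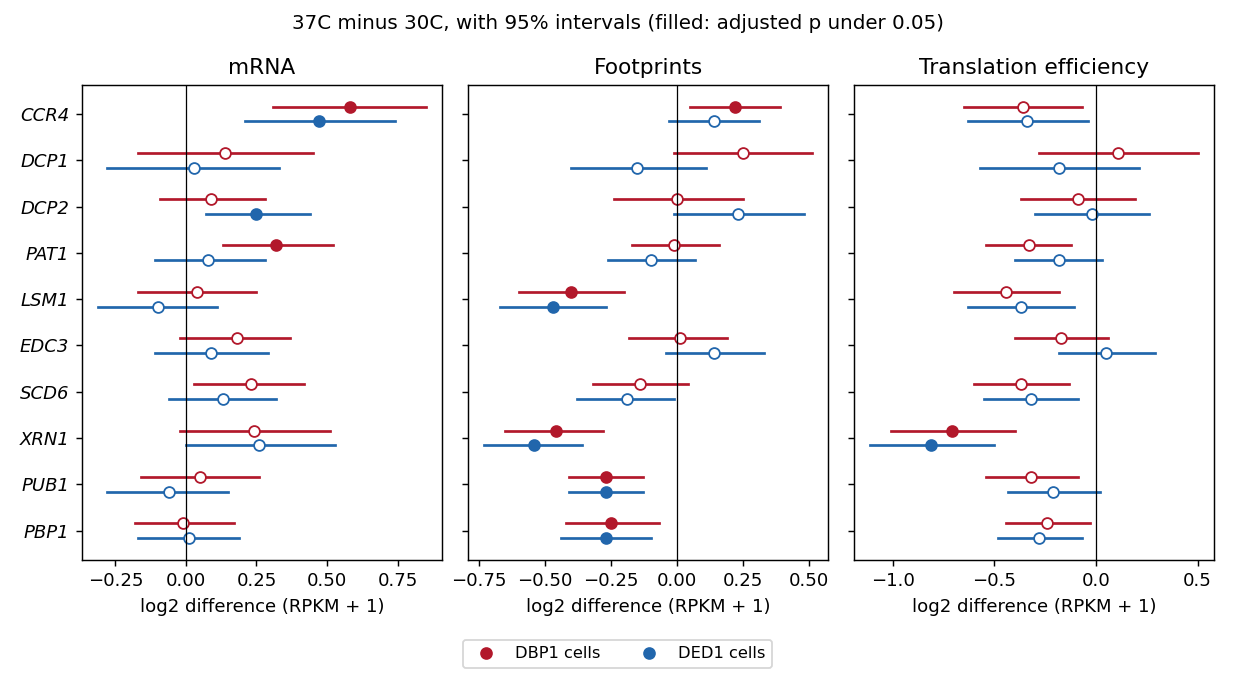
log2 differences, 37C minus 30C, for mRNA, footprints and translation efficiency of the 10 genes, with the DBP1 cells above the DED1 cells for each gene; points are limma estimates from the RPKM as deposited, lines 95% intervals, and filled points have an adjusted p under 0.05. XRN1 has filled points in footprints (-0.46 and -0.54 in DBP1 and DED1 cells) and translation efficiency (-0.71 and -0.81), while the filled mRNA points lie above 0 and, for PAT1 (DBP1 cells) and for CCR4 and DCP2 (DED1 cells), are lost under median-of-ratios scaling, where DCP2 turns to -0.02.

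The third comparison tested whether the response to temperature differed between strains, as the strain difference at 37C minus that at 30C. No member passed in mRNA (0 of 10, against 5.23% of all genes, with 0 under an unadjusted p of 0.05), in footprints (0 of 10, against 12.0%, with 1 under an unadjusted 0.05) or in translation efficiency (0 of 10, against 0.00%, with 0 under an unadjusted 0.05; limma). The 1 member was DCP1, with a footprint value of 0.40 (95% interval 0.03 to 0.76, adjusted p = 0.137). For XRN1 the value was 0.08 in footprints (95% interval -0.18 to 0.34) and 0.10 in translation efficiency (-0.33 to 0.53).

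Further decay and granule genes, 51 genes in 9 lists by complex or role, were set beside the members, and all 51 were tested. DHH1 (YDL160C), the DEAD-box helicase that activates decapping, had footprints of 145 and 143 RPKM in DBP1 cells at 37C, against 165, 182 and 173 RPKM at 30C, and 148 and 133 RPKM in DED1 cells at 37C, against 185, 173 and 173 RPKM at 30C. No 37C library reached the 30C range. Its log2 difference was -0.26 in the DBP1 cells (adjusted p = 0.0298, limma) and -0.33 in the DED1 cells (adjusted p = 0.00774). The first call of DHH1 ended without replicate 1 at 37C (0.0944), replicate 2 at 37C (0.119), replicate 2 at 30C (0.08) or replicate 3 at 30C (0.0661) of the DBP1 cells and with only the groups compared (0.0559), and the second without replicate 2 at 37C of the DED1 cells (0.0649). DHH1 mRNA overlapped between the temperatures in both strains, its translation efficiency was not called, and in the DED1 cells the fall in efficiency of -0.40 passed with libraries paired by culture (adjusted p = 0.0482). The share of all genes called with such pairing is not given.

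Between 37C and 30C, 14 of the 51 genes were called higher in mRNA and 1 lower in the DBP1 cells, where 30.0% of all genes were called higher and 13.1% lower. For the DED1 cells the counts were 16 higher and 1 lower, where 43.1% of all genes were called higher and 10.3% lower. The lists thus had no larger share of calls in either direction than all genes. Median-of-ratios scaling changed this split to 6 higher and 4 lower in the DBP1 cells and 4 higher and 10 lower in the DED1 cells. Of the 5454 genes tested, 714 were then higher and 1049 lower in the DBP1 cells. In the DED1 cells 926 were higher and 1180 lower. In the DBP1 cells the gene called lower was DCS2, a relative of the cap scavenger DCS1 (log2 difference -2.11, adjusted p = 0.000226, limma). In the DED1 cells the decapping activators EDC2 (1.26, adjusted p = 0.000347) and EDC1 (0.79, adjusted p = 0.000768) were called higher and kept their calls after scaling (0.99 and 0.53). With DCS1 they made 3 of the 5 other decapping and cap scavenging genes called higher in these cells, but the DCS1 call (0.57, adjusted p = 0.0221) ended after scaling (0.30, adjusted p = 0.18). Of the Ski complex and Ski7, which feed mRNA to the exosome, SKI2, SKI3 and SKI7 of 4 genes were called higher in mRNA in each strain as deposited. The calls of SKI2 and SKI3 ended after scaling, at 0.14 (adjusted p = 0.347) and 0.13 (adjusted p = 0.268) in the DBP1 cells and 0.02 (adjusted p = 0.887) and 0.03 (adjusted p = 0.785) in the DED1 cells. SKI7, the bridge to the exosome, kept its call in both strains. SKI7 mRNA averaged 39.3 ± 1.09 RPKM at 37C (SD, n = 2) against 27.1 ± 1.35 RPKM at 30C (n = 3) in the DBP1 cells, and 39.2 ± 1.06 RPKM at 37C against 26.4 ± 1.59 RPKM at 30C in the DED1 cells. Those are log2 differences of 0.52 (adjusted p = 0.00192) and 0.56 (adjusted p = 0.00103).

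Of the other deadenylase and decay genes called higher in mRNA at 37C, 5 in the DBP1 cells and 1 in the DED1 cells kept the call after median-of-ratios scaling. Those of the DBP1 cells were PAN2 of the Pan2-Pan3 deadenylase (log2 difference 0.55, adjusted p = 0.0023 as deposited, and 0.39, adjusted p = 0.0123 after scaling, limma), CDC39 and CAF40 of the other 8 Ccr4-Not genes (0.41 and 0.31 after scaling), NMD2 of the 5 nonsense-mediated decay genes (0.28 after scaling) and WHI3 of the 8 other granule and mRNA-binding genes (0.43 after scaling). The DBP1 cell calls of NOT3, UPF3, NAM7 and the exosome genes RRP46, DIS3 and RRP6, of 11, ended after scaling, at 0.11 to 0.25 (adjusted p 0.0528 to 0.364). CDC39 was the 1 gene of these groups that kept its call in the DED1 cells (0.60 as deposited, and 0.34, adjusted p = 0.025, after scaling). After scaling, 714 of the 5454 genes tested were called higher in the DBP1 cells and 926 in the DED1 cells. The DED1 cell calls of PAN2, PAN3, POP2, UPF3, RRP46, WHI3 and PBP2 ended at 0.07 to 0.24 (adjusted p 0.141 to 0.586), and those of CAF40 and NMD2 turned to -0.02 each (adjusted p 0.915 and 0.879). SBP1 was called lower in the DED1 cells both as deposited (-0.26, adjusted p = 0.0431) and after scaling (-0.53). In footprints 0 of the 8 Ccr4-Not genes were called in either strain as deposited, with 2 at an unadjusted p under 0.05 in each (limma), whereas scaling called POP2 (-0.34) and NOT5 (-0.30) lower in the DBP1 cells and CDC39, NOT3, CAF40 and NOT5 lower in the DED1 cells (-0.43 to -0.29). Of all genes as deposited, 21.2% were called higher and 17.6% lower in footprints in the DBP1 cells, and 38.9% and 13.6% in the DED1 cells. Scaling called 1038 of 4986 genes lower in the DBP1 cells and 1195 in the DED1 cells. CDC39, the scaffold of the Ccr4-Not complex, had a lower translation efficiency at 37C in the DED1 cells (-0.73, adjusted p = 0.0153). The CDC39 call ended without replicate 1 at 37C (0.0561), replicate 2 at 37C (0.191), replicate 2 at 30C (0.087) or replicate 3 at 30C (0.0972) of the DED1 cells and with only the groups compared (0.145). Of the 6 Lsm2-7 ring genes and the 2 no-go decay genes, 0 were called in mRNA in either strain as deposited, and 1 no-go decay gene in the DED1 cells had an unadjusted p under 0.05 (limma), while scaling called LSM4, LSM5 and LSM7 lower in the DED1 cells (-0.44 to -0.34). Over all genes as deposited, 30.0% were called higher and 13.1% lower in mRNA in the DBP1 cells, and 43.1% and 10.3% in the DED1 cells. Scaling called 1180 of 5454 genes lower in the DED1 cells. Many genes named from these lists, with or without a value, lie outside the rule for named genes and were chosen after their values were seen.

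In footprints, 5 of the 51 genes (LSM2, SKI2, SKI3, RRP4 and RRP40) were called higher and 6 lower at 37C in the DBP1 cells, where 21.2% of all genes were called higher and 17.6% lower. For the DED1 cells they were 10 higher and 6 lower, where 38.9% of all genes were called higher and 13.6% lower. Scaling ended the DBP1 cell calls of LSM2 (0.16, adjusted p = 0.186) and SKI2 (0.22, adjusted p = 0.092). Under median-of-ratios scaling the split was 3 higher and 11 lower in the DBP1 cells, and 5 higher and 20 lower in the DED1 cells. Of the 4986 genes tested, 761 were then higher and 1038 lower in the DBP1 cells. In the DED1 cells 1002 were higher and 1195 lower. PUF3, which binds messages for mitochondrial proteins, had footprints of 43.6 ± 2.49 RPKM at 37C (SD, n = 2) against 73.9 ± 3.94 RPKM at 30C (n = 3) in the DBP1 cells. That was a log2 difference of -0.75 (adjusted p = 0.000371, limma), with a translation efficiency difference of -0.87 (adjusted p = 0.0142). The PUF3 efficiency call ended without replicate 1 (0.107) or replicate 2 (0.148) at 37C and without replicate 1 (0.0767) or replicate 3 (0.0731) at 30C, and with only the groups compared (0.0799). GBP2, an mRNA-binding protein of the export route, had footprints of 72.2 ± 5.60 RPKM at 37C against 110 ± 2.24 RPKM at 30C in the DED1 cells (log2 difference -0.61, adjusted p = 0.000476). SKI7 (0.71, adjusted p = 0.00136) and PBP4 (0.47, adjusted p = 0.00147) were called higher in footprints in the DED1 cells. RRP40, an exosome subunit, was called higher in the DBP1 cells (0.62, adjusted p = 0.000498), where DCS2 fell (-2.35, adjusted p = 5.08e-05). In translation efficiency, WHI3, an RNA-binding protein, was the other gene called in the DBP1 cells (-0.59, adjusted p = 0.0353), and that call ended under median-of-ratios scaling (0.0778) and without any 1 of the 5 cultures of the DBP1 cells (adjusted p 0.0773 to 0.269).

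For the helicase swap itself, 0 of the 51 genes of the wider lists were called in mRNA at 37C, against 0.0550% of all genes, with 4 at an unadjusted p under 0.05 (limma). In footprints at 37C 1 gene, EDC1, was called lower, against 0.963% of all genes called in either direction. At 30C 2 of 51 were called in mRNA, against 9.30% of all genes, and 5 in footprints, against 13.5%. DCS2 and DCS1, a pair of related genes for cap scavenging of which Dcs2 is known as a regulator of Dcs1, were those called higher in mRNA at 30C. DCS2 mRNA was 52.4, 93.2 and 62.6 RPKM in the DBP1 cells at 30C, against 19.4, 16.7 and 10.9 RPKM in the DED1 cells at 30C. The groups were far apart, a 4.20-fold difference (log2 difference 2.07, adjusted p = 0.000587, limma). DCS1 mRNA was 95, 140 and 114 RPKM in the DBP1 cells at 30C, against 82.1, 65.8 and 54.6 RPKM in the DED1 cells. It was 1.71-fold higher (0.78, adjusted p = 0.0142), and the adjusted p was 0.0501 without replicate 3 of the DED1 cells. In footprints at 30C, DCS2 (2.44, adjusted p = 0.000113), DCS1 (0.75, adjusted p = 0.00605) and PBP4 (0.32, adjusted p = 0.0234) were called higher, and RRP4 (-0.33) and GBP2 (-0.29) lower. Median-of-ratios scaling turned this split of 3 higher and 2 lower to 2 higher and 4 lower. Of the 4986 genes tested, 369 were then higher and 248 lower. PBP4, a partner of Pbp1, lost its call without replicate 1 (0.0853) or 2 (0.07) of the DBP1 cells, without replicate 2 (0.091) or 3 (0.0628) of the DED1 cells, and under median-of-ratios scaling (0.0528). The EDC1 footprint difference at 37C (-0.74, adjusted p = 0.0452) was 54.7 and 45.8 RPKM in the DBP1 cells, against 91.7 and 77.3 RPKM in the DED1 cells. It ended without replicate 2 of the DBP1 cells (0.161) and without replicate 1 (0.199) or replicate 2 (0.124) of the DED1 cells. The EDC1 call also ended under median-of-ratios scaling (-0.66, adjusted p = 0.067), with only the groups compared (0.194), with no filter on low values (0.0585) and with no intensity trend (0.0572). Reads of related genes such as DCS1 and DCS2 or EDC1 and EDC2 may have been shared in ways the labels do not state, so their levels are uncertain. The strain difference at 37C minus that at 30C was called in 3 of the 51 genes in mRNA, all lower, against 5.23% of all genes, and 1 of them, DCS2, was called after scaling. In footprints it was called in 6 of the 51, against 12.0% of all genes, with 0 higher and 6 lower as deposited. After scaling 2 were higher and 3 lower, against 187 higher and 298 lower of the 4986 genes tested. In translation efficiency 0 of 51 were called in the swap at 37C, the swap at 30C or that difference, with 2, 4 and 1 at an unadjusted p under 0.05 (limma). Of all genes 0.0201%, 0.0402% and 0.00% were called in these comparisons, in the same order.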

How the data were processed

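The authors deposited 1 table of RPKM values for 20 libraries, 10 of poly(A) mRNA (fragments of about 50 bases, per the labels' protocols) and 10 of ribosome footprints (28 to 31 bases). The submitters' processing notes name CASAVA, bcl2fastq 2.17 and Bowtie2. Not given in the sources used here are the build of the genome, the tool that counted reads, and the treatment of reads shared by related genes. Strain, temperature and replicate were taken from the labels. Some column headers disagree with them (a strain number misspelled in 2 headers, and 1 mRNA column called footprint), and the labels' titles were followed. Gene names came from RefSeq for 5994 of 6679 genes, matched by locus tag.

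Differences were fitted with limma 3.58.1 in R 4.3.3 on log2(RPKM + 1), with 1 mean per group, an intensity trend and a filter that kept genes averaging 5 RPKM or more over the libraries of an assay. The p-values are two-sided and adjusted by the Benjamini-Hochberg method over all genes tested, with calls at an adjusted p under 0.05. Translation efficiency was the footprint effect minus the mRNA effect over all 20 libraries, with the footprint and mRNA library of a culture not paired. The procedure was tested on simulated data. Depth came from the step that 1 read makes in the RPKM of a gene.

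The labels number the replicates and do not say whether these are separate cultures, so p-values measure the spread between these libraries. Footprint and mRNA libraries of the same strain, temperature and number had correlations of deviations from the group mean of 0.24 to 0.655, and are called a culture here. With 2 replicates at 37C, both pairs of a group give the same correlation by arithmetic. Correlations between other numbers were not computed, so whether these libraries pair by number was not tested. An efficiency fit with libraries paired by number is given where it changed a call, and for XRN1. Alternatives were other pseudocounts and filters, median-of-ratios scaling, only the groups compared, a replicate block, no trend, and each replicate left out. All 10 members are named. Of the wider lists, DHH1 and up to 3 genes with the lowest adjusted p per comparison and measure are named by rule. Other genes of these lists were named after their values were seen. The members, lists and alternatives were chosen with earlier results of these data known. Promoter and protein sequences were not analysed here.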

Additional observations from a re-analysis of the deposited data

Results flagged for a closer look

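Each of the values here is the DBP1 minus DED1 difference at 37C minus the same difference at 30C, on the log2 scale, and each gene's response to temperature differed between the strains by limma's test of that difference. For DCS2 mRNA the value was -2.47 (adjusted p = 0.00554), with 14.8 and 14.9 RPKM at 37C and 52.4, 93.2 and 62.6 RPKM at 30C in the DBP1 cells, against 21.9 and 18.0 RPKM at 37C and 19.4, 16.7 and 10.9 RPKM at 30C in the DED1 cells. For DCS2 footprints it was -2.50 (adjusted p = 0.00214), with 6.39 and 6.19 RPKM at 37C and 29.4, 47.3 and 34.0 RPKM at 30C in the DBP1 cells, against 6.14 and 7.08 RPKM at 37C and 7.54, 6.01 and 4.34 RPKM at 30C in the DED1 cells. The DBP1 cells at 30C stood apart from the other 3 groups in both measures.

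EDC1 and EDC2 are related genes for decapping activators. For EDC2 mRNA the value was -0.97 (adjusted p = 0.0395), with 29.5 and 46.9 RPKM at 37C and 31.6, 30.4 and 28.8 RPKM at 30C in the DBP1 cells, against 59.5 and 60.4 RPKM at 37C and 26.9, 24.8 and 22.1 RPKM at 30C in the DED1 cells. For EDC1 mRNA it was -0.70 (adjusted p = 0.0466), with 25.6 and 27.5 RPKM at 37C and 25.5, 25.3 and 23.7 RPKM at 30C in the DBP1 cells, against 37.5 and 30.4 RPKM at 37C and 19.6, 20.9 and 16.9 RPKM at 30C in the DED1 cells. For EDC2 footprints it was -1.28 (adjusted p = 0.0239), with 36.1 and 63.0 RPKM at 37C and 47.6, 63.7 and 57.7 RPKM at 30C in the DBP1 cells, against 84.0 and 76.9 RPKM at 37C and 42.2, 37.4 and 34.9 RPKM at 30C in the DED1 cells. For EDC1 footprints it was -0.83 (adjusted p = 0.0204), with 54.7 and 45.8 RPKM at 37C and 54.7, 65.5 and 58.1 RPKM at 30C in the DBP1 cells, against 91.7 and 77.3 RPKM at 37C and 58.9, 58.8 and 50.1 RPKM at 30C in the DED1 cells. The DED1 cells at 37C had the highest level of both genes in both measures. Median-of-ratios scaling ended the mRNA calls of EDC2 (-0.86, adjusted p = 0.0558) and EDC1 (-0.60, adjusted p = 0.0769), and so did leaving out the filter on low values (0.0575 and 0.0612) and, for EDC2, the intensity trend (0.0502). Leaving out any 1 library ended the EDC2 mRNA call (adjusted p up to 0.121), except replicate 2 at 37C of the DBP1 cells and replicate 1 at 30C of the DED1 cells. It ended the EDC1 mRNA call too (up to 0.163), except for replicate 2 at 37C of the DED1 cells. The EDC1 footprint call ended without replicate 2 at 37C of the DBP1 cells (0.0649) or replicate 1 at 37C of the DED1 cells (0.0817). The EDC2 footprint call ended without replicate 3 at 30C of the DBP1 cells (0.0508) and, of the DED1 cells, without replicate 1 (0.0861) or 2 (0.0557) at 37C or replicate 2 (0.0534) or 3 (0.0505) at 30C.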

How the results depend on the processing

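Of 2120 values of the members under the alternatives, 2072 kept their side of the threshold, 33 lost a call and 14 gained one. A further 1 called value reversed, DCP2 mRNA in DED1 cells between temperatures (-0.02 under median-of-ratios scaling). A value without a call could change sign in these counts. The swap and the strain by temperature difference had no member call to lose, so every lost call was between temperatures. Footprints in DBP1 cells lost 14, mRNA in DED1 cells lost 6, and XRN1 efficiency lost 5 in each strain. Between temperatures, median-of-ratios scaling gave 1 mRNA call in DBP1 cells (2 as reported) and 7 footprint calls in DED1 cells (4 as reported). Fits of only the groups compared gave 3 footprint calls in DBP1 cells (5 as reported) and 0 efficiency calls in either strain (1 as reported). Pairing by culture gave 2 efficiency calls in each strain. Over all genes, efficiency calls ran up to 279 in DBP1 cells and 334 in DED1 cells over the alternatives. The count over all genes in the paired fit is not given apart from these ranges. Whether the members' share of calls there exceeds that of all genes therefore cannot be told. Leaving out 1 library gave 1 to 3 mRNA calls in DBP1 cells, 0 to 3 in DED1 cells, 2 to 4 footprint calls in DBP1 cells, 3 to 5 in DED1 cells, 0 to 1 efficiency calls in each strain, and 0 to 1 footprint calls for the swap at 30C. Libraries of the 2 strains with the same replicate number had correlations of deviations of -0.161 to 0.359 at 30C. Those with other numbers had -0.386 to 0.398 there. At 37C the same number gave 0.361 in mRNA and 0.479 in footprints. With 2 replicates in each group there, the other number must give the same size with the opposite sign, which adds no information. Whether replicate numbers pair the strains was therefore not settled. With the replicate number as a block, 4 of 5 footprint calls held in DBP1 cells, the CCR4 one being lost (adjusted p = 0.0753, limma). No other member call changed. Counts over all genes ranged over the alternatives in mRNA from 2 to 20 (3 as reported) for the swap at 37C, 271 to 679 (507) at 30C, 1358 to 2476 (2350) between temperatures in DBP1 cells, 1977 to 3022 (2909) in DED1 cells, and 88 to 523 (285) for the strain by temperature difference. In footprints they ranged from 2 to 99 (48), 340 to 852 (672), 1290 to 2016 (1938), 1673 to 2785 (2621) and 205 to 817 (596) in the same order, and in efficiency from 0 to 2 (1), 1 to 9 (2), 0 to 279 (51), 4 to 334 (49) and 0 to 1 (0). Scaling also moved the split of all genes called in footprints for the swap at 30C to 369 higher and 248 lower (518 and 154 as reported), for the strain by temperature difference to 187 and 298 (95 and 501), and in efficiency between temperatures to 8 and 29 in DBP1 cells (3 and 48) and 11 and 26 in DED1 cells (7 and 42). The cause of these changes was not tested. The fewest reads behind a member were the 137 to 345 of DCP1 in a footprint library, and the part of depth in its missing calls was not tested.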
